A study of Homo sapiens with 12 samples.

Results

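Pyruvate dehydrogenase, the mitochondrial enzyme complex that turns pyruvate into acetyl-CoA, is switched off when its E1 alpha subunit is phosphorylated and switched on again when the phosphate is removed. The phosphate is placed by pyruvate dehydrogenase kinases and taken off by pyruvate dehydrogenase phosphatases. The human genome encodes 4 kinases (PDK1, PDK2, PDK3 and PDK4) and 2 catalytic phosphatase subunits (PDP1 and PDP2), and these 6 of the 62710 genes in the tables are described here. They were taken by gene symbol, and this family was chosen with earlier results of these data known. All 6 passed the filter on low counts and were among the 18355 genes tested.

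As background, PDK1 and PDK3 are known targets of the hypoxia-inducible factors (HIF), PDK2 is a broadly expressed kinase held back by pyruvate, and PDK4 is the kinase of fasting, switched on by PPAR, FOXO and glucocorticoid receptors. Lactate enters this system by oxidation to pyruvate, the substrate that the complex consumes. PDP1 is the calcium-stimulated phosphatase and PDP2 the insulin-responsive one. In liver these enzymes set whether pyruvate carbon is burned or saved for glucose synthesis.

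RNA sequencing was done on total RNA of HLF, SNU475 and PLC/PRF/5, established human hepatocellular carcinoma lines with no genetic change named in the labels. In each line 1 group was cultured for 24 h with lactate at 20 mM, added as lactic acid, and the control groups are labelled only as control. Whether the medium was adjusted for pH is not stated in the labels. The 12 libraries are 2 per line and condition. The labels name no separate cultures behind the pair of libraries in a group, so a p-value here covers the library-to-library spread alone, and that spread may be technical. Each line stands for itself, and in bulk RNA fewer expressing cells and less RNA per cell cannot be told apart.

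Total expected counts ranged from 16533437 to 22187849 per library. The share of mitochondrially encoded transcripts was 9.52% and 3.39% in HLF without lactate and 5.49% and 3.93% with it. In SNU475 it was 8.0% and 15.05% in the controls and 8.5% and 13.88% with lactate, and in PLC/PRF/5 it stayed between 6.21% and 7.08%. Both SNU475 libraries numbered 2 were thus above both numbered 1. Of 10 hepatocyte markers, all 10 averaged at least 1 TPM (RSEM's transcript level, scaled by length and library) in PLC/PRF/5, with a summed level of 3300 to 7553 TPM. Only 2 of 10 did so in HLF, summing to 9.63 to 17.35 TPM, and 2 of 10 in SNU475, summing to 5.42 to 8.45 TPM. APOA1, APOA2, APOB, TTR and TF averaged under 0.1 TPM in both, as did HNF4A in HLF and ALB in SNU475.

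Each of the 6 genes lies on a chromosome of its own (GRCh38, GENCODE 29, matched by Ensembl identifier). PDK1 (ENSG00000152256) is at chr2:172555373-172608669 on the plus strand. PDK2 (ENSG00000005882) is at chr17:50094737-50112152 on the plus strand. PDK3 (ENSG00000067992) is X-linked, at chrX:24465221-24541862 on the plus strand. PDK4 (ENSG00000004799) is at chr7:95583499-95596491 on the minus strand. PDP2 (ENSG00000172840) is at chr16:66878589-66895754 on the plus strand. PDP1 is ENSG00000164951. Genes on the opposite strand overlap some of them, and no label or header says whether counting used strand. Summed over the 12 libraries, the antisense gene PDK1-AS1 had 2.4% of the PDK1 count and SAMD14 3.46% of the PDK2 count. PDK4-AS1, taken by name, had 0.23% of the PDK4 count, and no gene overlapping PDK4 was found by position. Most PDK4 counts are from PLC/PRF/5, so that share does not speak for HLF. In single libraries PDK1-AS1, SAMD14 and PDK4-AS1 reached 32.54, 50.85 and 15 counts.

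Upstream sequences from RefSeq (GRCh38.p14) are shown for the kinases because PDK1 and PDK3 carry the HIF core letters, ACGTG or GCGTG on either strand, and PDK4 does not. RefSeq lists 2 start windows for PDK1 and 3 for PDK2, and the second is shown for both, as the others hold no HIF core. The PDK1 stretch is chr2:172555840-172555968 on the plus strand, and the site that follows, chr2:172556060-172556089, holds both HIF cores of that window. For PDK3 the stretch is chrX:24465036-24465220 and the site chrX:24465212-24465241, both on the plus strand. For PDK4 it is chr7:95596517-95596766, read on the minus strand, and for PDK2 chr17:50095101-50095274 on the plus strand, shown because it carries the same letters while its mean lactate effect was near 0. Capitals mark HIF cores on either strand.
PDK1 upstream: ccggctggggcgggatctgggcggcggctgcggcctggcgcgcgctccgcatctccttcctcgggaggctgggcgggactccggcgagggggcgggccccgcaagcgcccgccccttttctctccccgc
PDK1 site: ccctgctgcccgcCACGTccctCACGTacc
PDK3 upstream: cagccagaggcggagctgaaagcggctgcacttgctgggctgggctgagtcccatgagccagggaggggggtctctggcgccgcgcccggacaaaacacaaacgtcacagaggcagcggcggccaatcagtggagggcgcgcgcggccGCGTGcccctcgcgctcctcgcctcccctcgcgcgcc
PDK3 site: tcgcgcgccgcgtACGTGcagcaaccgact
PDK4 upstream: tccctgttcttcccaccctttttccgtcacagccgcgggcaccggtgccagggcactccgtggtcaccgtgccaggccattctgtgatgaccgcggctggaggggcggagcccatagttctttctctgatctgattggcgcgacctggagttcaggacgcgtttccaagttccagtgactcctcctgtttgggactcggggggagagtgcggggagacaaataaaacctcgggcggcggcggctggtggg
PDK2 upstream: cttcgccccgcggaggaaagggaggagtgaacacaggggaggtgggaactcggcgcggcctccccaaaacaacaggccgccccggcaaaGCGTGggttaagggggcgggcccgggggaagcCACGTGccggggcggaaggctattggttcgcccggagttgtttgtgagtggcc

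In the 250 bases before the start, the HIF core occurred 2 times in PDK1 (second window), 2 times in PDK3, 3 times in PDK2 (second window), 3 times in PDP2 and 0 times in PDK4. In PDK2 and PDP2 a CACGTG E-box holds the core on both strands and so counts 2 times. These letters are common, being in 43.2% of all 35116 RefSeq windows of that length, and CACGTG is in 6.34%. The FOXO motif GTAAACA, in 2.98% of windows, and the PPAR direct repeat AGGTCANAGGTCA, in 0.0171%, were in none of the windows searched, which cover the members other than PDP1. Both strands were searched. The GC box GGGCGG, in 42.6% of windows, occurred 7 times in PDK1 and 2 times in PDK4. A match is a description of these letters only.

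PDK4 had the largest mean lactate effect of the members, although in PLC/PRF/5 alone PDK1 had the larger fold change, and it was the one member of the 6 whose libraries with lactate lay above the controls in all 3 lines. In HLF it rested on very few counts. Its expected counts were 1 and 2 in the HLF controls and 28 and 17 with lactate. In SNU475 they were 78 and 60 in the controls and 115 and 150 with lactate, and in PLC/PRF/5 1160 and 1911 against 2961 and 3065. The higher values were thus the lactate libraries in each line, with no overlap.

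On the TPM scale, which divides by transcript length and so allows genes to be compared, PDK4 was at 0.03 and 0.04 in the HLF controls and 0.53 and 0.32 with lactate. The SNU475 values were 1.48 and 0.93 against 2.54 and 2.65, and the PLC/PRF/5 values 28.52 and 42.46 against 56.58 and 70.01. Ratios of summed counts scaled by library size, with exact binomial 95% intervals that cover counting error only, were 13.5 (4.32 to 67.7) in HLF, from 45 against 3 counts. For SNU475 the ratio was 2.19 (1.78 to 2.71) and for PLC/PRF/5 it was 1.63 (1.56 to 1.70). The counting interval for HLF does not overlap the others, but it leaves out the spread between libraries.

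Fold changes were tested with the quasi-likelihood test of edgeR, fitted to all 12 libraries as 6 groups, with Benjamini-Hochberg adjustment over all 18355 genes and a threshold of 0.05. Averaged over the 3 lines with equal weights, the lactate effect on PDK4 was 1.84 ± 0.25 (log2, SE; 95% interval 1.30 to 2.39; adjusted p = 0.0269, edgeR). Its value was positive in 3 of 3 lines, and PDK4 ranked 6 of 18355 genes by p. It was the 1 member called, against 0.42% of all genes tested, and 0.305% called higher. By CPM, lactate libraries above the controls in all 3 lines were found for 2.72% of genes and for 1 of the 6 members. The call is not firm: with limma-voom the adjusted p was 0.0629 (log2 1.75), where 0.0872% of genes were called, and in edgeR it was lost when any of 8 of the 12 libraries was left out. These were both HLF controls, HLF lactate 1, SNU475 control 2 and the 4 PLC/PRF/5 libraries, and those fits called 0 to 4 genes in all. Over the 12 such fits the log2 value lay between 1.71 and 2.03 and the adjusted p between 0.00255 and 0.137 (edgeR).

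No member was called within a single line, where 0% of genes were. PDK4 had a log2 fold change of 3.64 ± 0.62 in HLF (SE; adjusted p = 0.405, edgeR; rank 4 of 18355 genes by p). It had 1.14 ± 0.30 in SNU475 (adjusted p = 0.276, edgeR), and for PLC/PRF/5 the value was 0.75 ± 0.27 (adjusted p = 0.726, edgeR). The shares of genes at an unadjusted p under 0.05 were 6.28% (HLF), 11.6% (SNU475) and 5.92% (PLC/PRF/5), where 3, 1 and 1 of the 6 members were, PDK4 in each. Without both SNU475 libraries numbered 2, the SNU475 value for PDK4 was 0.69 (adjusted p = 0.858, edgeR), which assumes that the lone libraries vary like the rest. With DESeq2 the HLF effect passed (log2 3.77, adjusted p = 0.0238), as it did for 0.229% of genes. No member was called lower for the mean effect, against 0.114% of genes.

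A difference in the PDK4 effect between the lines did not pass the test. The interaction of lactate with line ranked PDK4 at 68 of 18355 genes by p, with an adjusted p of 1 (edgeR) and 0% of genes called. The effect in SNU475 less that in HLF was -2.50 ± 0.74 (log2, SE), and the effect in PLC/PRF/5 less that in HLF was -2.89 ± 0.71. The effects in PLC/PRF/5 and SNU475 differed by -0.39 ± 0.41. In TPM the order is the reverse: the difference between the means with and without lactate was largest in PLC/PRF/5, where the level was highest.

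**Figure D1:**
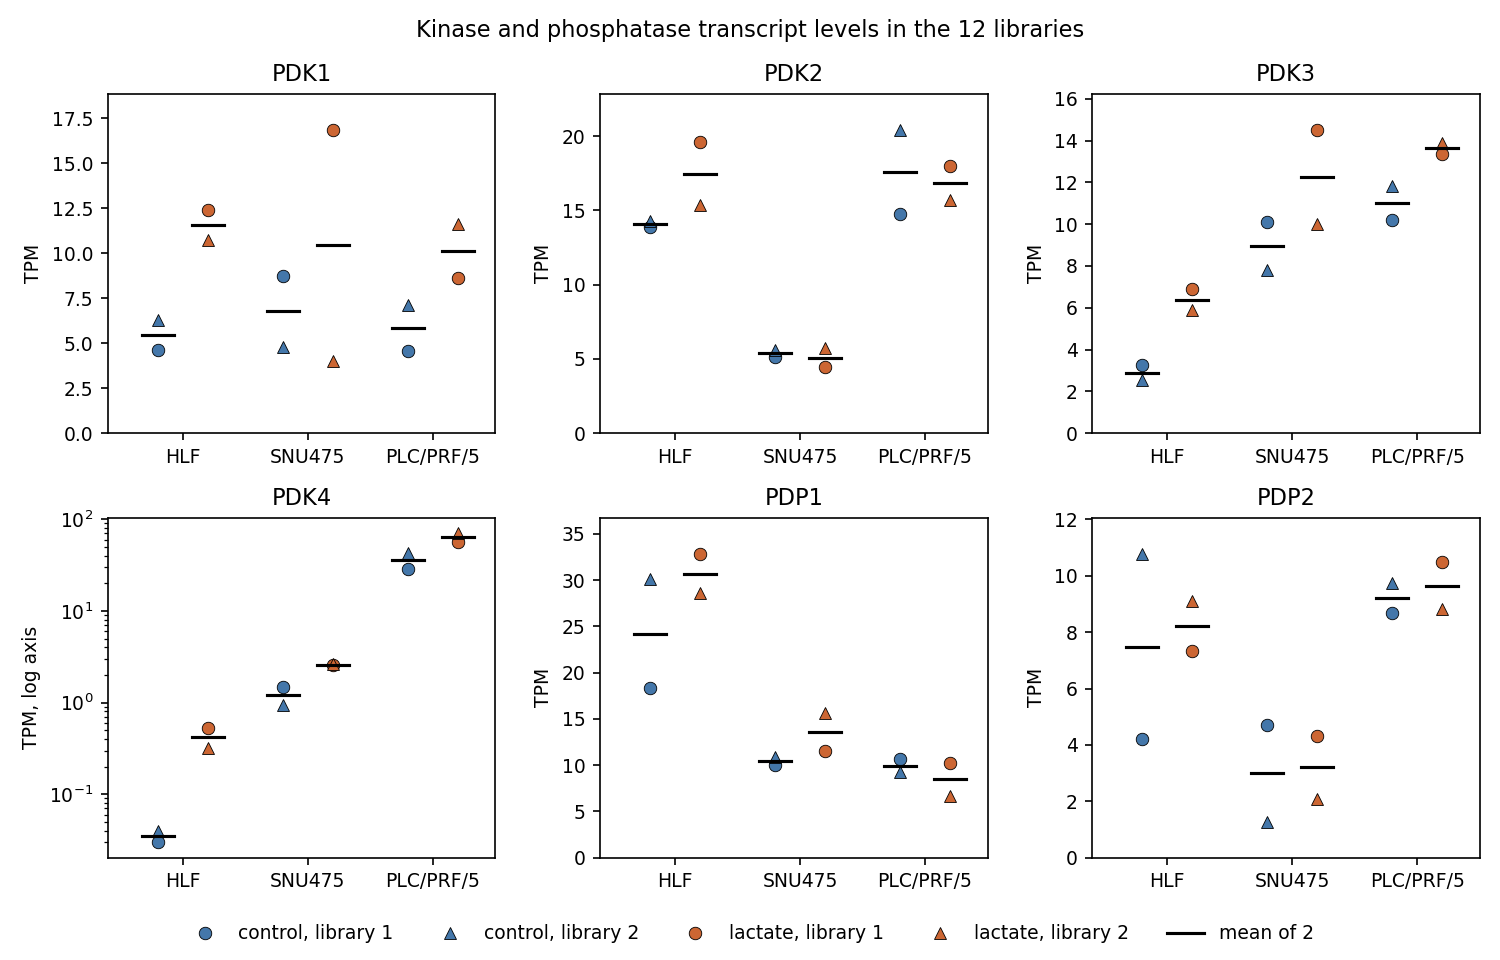
TPM of the 6 genes in each of the 12 libraries, with cell line on the horizontal axis, controls in blue, lactate in orange, circles and triangles for libraries 1 and 2, and a bar for the mean of 2. The PDK4 axis is logarithmic and runs from 0.03 TPM in an HLF control to 70.01 TPM in a PLC/PRF/5 lactate library, while the other axes are linear and start at 0.

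PDK1, the kinase that also phosphorylates a site the other kinases do not, did not pass the test, although its lactate libraries lay above the controls in HLF and PLC/PRF/5. In HLF it was at 4.60 and 6.31 TPM in the controls and 12.41 and 10.74 TPM with lactate. In PLC/PRF/5 it was at 4.59 and 7.12 TPM against 8.63 and 11.64 TPM. In SNU475 the controls were at 8.72 and 4.80 TPM and the lactate libraries at 16.84 and 4.01 TPM. The groups did not overlap in HLF and PLC/PRF/5, whereas in SNU475 the 2 lactate libraries were the highest and the lowest of the 4.

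The log2 fold change of PDK1 was 1.03 ± 0.46 for HLF (SE; adjusted p = 0.787, edgeR), 0.49 ± 0.45 for SNU475 and 0.92 ± 0.46 for PLC/PRF/5 (adjusted p = 0.859, edgeR). The mean effect was 0.81 ± 0.26 (SE; adjusted p = 0.164, edgeR) and did not pass. Between libraries of the same number, the ratio of CPM (counts scaled by library size) with lactate to control was 2.28 and 1.82 in HLF, 1.99 and 1.84 in PLC/PRF/5, and 1.69 and 0.92 in SNU475. PDK1 was higher in 5 of 6 such pairs, the exception being the SNU475 libraries numbered 2, those with the higher mitochondrial shares. The part of that share in the result was not tested.

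PDK3, a kinase little held back by pyruvate, had its lactate libraries above the controls in the same lines and did not pass the test. In HLF its levels were 3.25 and 2.52 TPM in the controls and 6.92 and 5.87 TPM with lactate. In PLC/PRF/5 they were 10.18 and 11.81 TPM against 13.35 and 13.90 TPM, and in SNU475 10.11 and 7.79 TPM against 14.51 and 10 TPM. The groups were apart in HLF and PLC/PRF/5 and overlapped in SNU475. The mean log2 effect was 0.57 ± 0.16 (SE; adjusted p = 0.125, edgeR), which did not pass, with 1.07 ± 0.29 for HLF, 0.27 ± 0.28 for SNU475 and 0.37 ± 0.28 for PLC/PRF/5. By CPM, 5 of 6 same-numbered pairs were higher, with ratios of 1.92 and 2.4 in HLF, 1.18 and 1.4 in PLC/PRF/5, and 1.46 and 0.934 in SNU475.

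For PDK1 and PDK3 the call on the mean effect differed between fits, and the reason was not tested. With the library number as a block within each line, PDK1 had a mean log2 effect of 0.77 (adjusted p = 0.00994, edgeR) and PDK3 of 0.56 (adjusted p = 0.0237), so that 3 of the 6 members were called, with PDK4 at an adjusted p of 0.00254. That fit called 6.91% of all genes, and it assumes a pairing of same-numbered libraries that no label states. Without both SNU475 libraries numbered 2 the values were 0.90 (adjusted p = 0.0157, edgeR) for PDK1 and 0.66 (adjusted p = 0.0238) for PDK3, in a fit that called 2.76% of genes. DESeq2 called PDK3 (0.58, adjusted p = 0.0272) beside 5.16% of genes. The errors were smaller in the first 2 of these fits and larger with DESeq2. By CPM, non-overlap with lactate higher was found for 3 of 6 members in HLF (19.6% of all genes tested), 1 of 6 in SNU475 (16.2%) and 3 of 6 in PLC/PRF/5 (28.5%). By CPM none of the 6 members had lactate libraries wholly below the controls in any line, where 19.9%, 15.4% and 21.8% of genes did, nor in all 3 lines, where 3.37% did.

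No lactate effect on PDK2 was detected. Its levels were 13.87 and 14.30 TPM in the HLF controls and 19.59 and 15.37 TPM with lactate, where the groups were apart on this scale only. They were 5.15 and 5.63 TPM against 4.46 and 5.73 TPM in SNU475, and 14.78 and 20.43 TPM against 18.01 and 15.71 TPM in PLC/PRF/5. The mean log2 effect was -0.01 ± 0.17 (SE; 95% interval -0.38 to 0.37; adjusted p = 1, edgeR), and its sign changed with the scaling.

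No lactate effect on the phosphatases was detected either. PDP1, the more abundant of the pair in most libraries, was at 18.30 and 30.07 TPM in the HLF controls and 32.78 and 28.61 TPM with lactate. It was at 9.98 and 10.87 TPM against 11.55 and 15.62 TPM in SNU475, and at 10.62 and 9.25 TPM against 10.21 and 6.70 TPM in PLC/PRF/5. On the TPM scale the SNU475 lactate libraries lay above the controls, which by CPM they did not. Its mean log2 effect was 0.09 ± 0.17 (SE; 95% interval -0.29 to 0.46; adjusted p = 0.905, edgeR), with both signs among the lines.

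PDP2 was at 4.21 and 10.76 TPM in the HLF controls and 7.34 and 9.12 TPM with lactate. It was at 4.72 and 1.28 TPM against 4.32 and 2.08 TPM in SNU475, and at 8.69 and 9.73 TPM against 10.48 and 8.81 TPM in PLC/PRF/5. Library 1 was above library 2 in both SNU475 groups, so the spread within a group exceeded the difference between the groups. The mean log2 effect was 0.04 ± 0.20 (SE; 95% interval -0.39 to 0.48; adjusted p = 1, edgeR). Over the 6 genes the median log2 effect was 0.61 (HLF), 0.33 (SNU475), 0.23 (PLC/PRF/5) and 0.33 (mean of the lines), beside 0.00, 0.01, 0.03 and 0.03 over all genes tested.

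**Figure D2:**
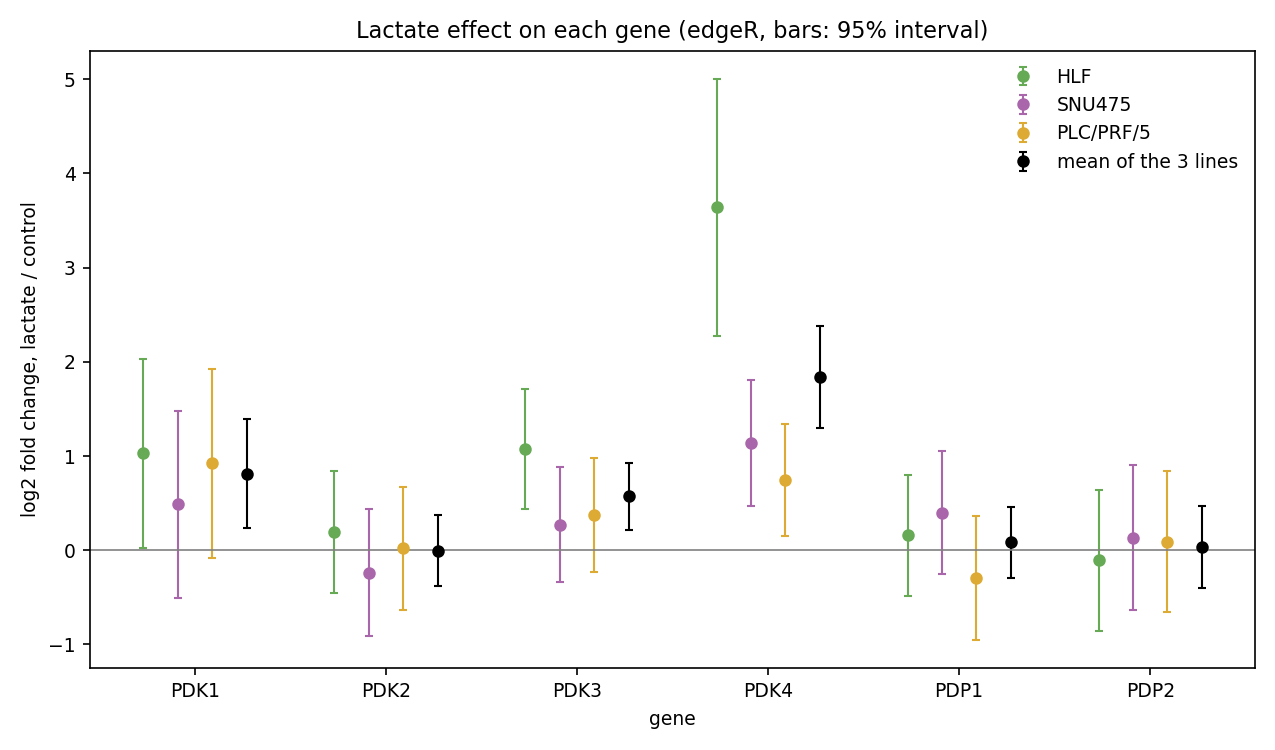
Log2 fold change, lactate over control, on the vertical axis for each gene in each line (colours) and averaged over the lines (black), with bars for the unadjusted 95% interval from edgeR. PDK4 lies above 0 in each line, from 0.75 to 3.64, while the mean effects of PDK2, PDP1 and PDP2 lie between -0.01 and 0.09.

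For every member except PDK1, the largest log2 difference between untreated lines exceeded the lactate effects in size. PDK4, at 1 and 2 counts in the HLF controls, was 51.2 times as high in untreated SNU475 as in HLF (exact binomial 95% interval 17.1 to 251, counting error only). Untreated PLC/PRF/5 was 20.7 times (17.4 to 24.7) above SNU475 and 1060 times (362 to 5130) above HLF. The log2 differences were 5.56 ± 0.54 (SE; adjusted p = 1.54e-05, edgeR), 4.35 ± 0.32 (adjusted p = 1.39e-06) and 9.91 ± 0.49 (adjusted p = 9.65e-08). The last ranked 47 by p and 350 by size of 18355 genes. These comparisons share control libraries, so they are not independent of each other.

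PDK3 was lowest in HLF, below SNU475 by 2.03 ± 0.29 (log2, SE; adjusted p = 0.000279, edgeR) and below PLC/PRF/5 by 2.53 ± 0.30 (adjusted p = 4.28e-05, edgeR). With effective lengths as offsets the latter was 1.65 (adjusted p = 0.000517, edgeR). PDK2 was lowest in SNU475, by -1.08 ± 0.30 against HLF (adjusted p = 0.0154, edgeR), and PLC/PRF/5 was above SNU475 by 0.94 ± 0.30 (adjusted p = 0.0242, edgeR). PDK1 was not called between any 2 lines, with differences of 0.71 ± 0.46, -0.04 ± 0.46 and -0.74 ± 0.46 for SNU475 against HLF, PLC/PRF/5 against HLF and PLC/PRF/5 against SNU475. Without both SNU475 libraries numbered 2, PDK1 was called higher in SNU475 than in HLF (1.07, adjusted p = 0.0111, edgeR) and lower in PLC/PRF/5 than in SNU475 (-1.05, adjusted p = 0.0103, edgeR).

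PDP1 was highest in untreated HLF. PLC/PRF/5 differed from HLF by -1.52 ± 0.30 (log2, SE; adjusted p = 0.00193, edgeR) and SNU475 from HLF by -0.84 ± 0.30 (adjusted p = 0.0428, edgeR). The SNU475 call was lost in 9 of the 12 fits that left out a library. PDP2 was lowest in SNU475, at -1.12 ± 0.35 against HLF (adjusted p = 0.0244, edgeR), and PLC/PRF/5 was above SNU475 by 1.20 ± 0.35 (adjusted p = 0.0143, edgeR). Without both SNU475 libraries numbered 2, PDP2 was at -0.67 against HLF (adjusted p = 0.0577, edgeR). PDP2 did not differ detectably between PLC/PRF/5 and HLF (0.08 ± 0.34).

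In all, 5 of 6 members were called for SNU475 against HLF, 2 higher and 3 lower, beside 39% of all genes tested (21.9% higher, 17.2% lower). For PLC/PRF/5 against HLF, 3 of 6 were called, 2 higher and 1 lower, beside 43% (21.7% and 21.3%). For PLC/PRF/5 against SNU475, 3 of 6 were called, all higher, beside 48.7% (22.4% higher, 26.3% lower). Calls between these lines are thus common among all genes, and the hepatocyte markers given above separate PLC/PRF/5 from the other lines as well. Their part in the PDK4 difference was not tested.

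Ordered by mean TPM, the PDK4 groups did not overlap at any step: PLC/PRF/5 with lactate at 63.3 ± 9.50 (SD, n = 2), its controls at 35.49 ± 9.86, SNU475 with lactate at 2.595 ± 0.078, its controls at 1.21 ± 0.39, HLF with lactate at 0.425 ± 0.149 and its controls at 0.035 ± 0.0071. The highest group mean was 1810 times the lowest. For PDK1 every neighbouring pair in the order overlapped and the highest mean was 2.12 times the lowest. For PDK3 that ratio was 4.72, and the order ran from PLC/PRF/5 with lactate at 13.62 TPM to the HLF controls at 2.885 TPM. Neighbouring PDK3 groups overlapped only among the 3 highest. The SNU475 groups, which are not neighbours in that order, overlapped as well. By group means PDK2 (3.46 times), PDP1 (3.63 times) and PDP2 (3.21 times) had narrower ranges than PDK3. Over single libraries PDP2 ranged more widely than PDK3, 8.41 times against 5.76 times. All neighbouring PDP2 groups overlapped.

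The mix of kinases differed by line. In the HLF controls PDK2 made up 62.8% ± 1.5 of the summed kinase TPM (SD, n = 2) and PDK4 0.156% ± 0.025. In the SNU475 controls PDK3 led with 40.2% ± 0.71, followed by PDK1 with 29.7% ± 6.4, and PDK4 made up 5.34% ± 0.67. In the PLC/PRF/5 controls PDK4 made up 50.5% and PDK2 25.3%. By mean TPM each untreated line therefore had a different leading kinase transcript. With CPM divided by the mean effective length of each gene, PDK2 had 66.98% in the HLF controls and PDK4 49.52% in the PLC/PRF/5 controls. In the SNU475 controls PDK3 and PDK1 were then closer, at 35.06% and 31.61%. The PDK3 share moved by at least its SD in every group. In SNU475 lactate library 1, PDK1 led by TPM, with 43.9% against 37.8% for PDK3.

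With lactate the PDK4 share was 1.17% for HLF, 9.21% for SNU475 and 60.8% for PLC/PRF/5. The PDK2 share was 48.7%, 18.6% and 16.4%, below that of the controls by mean in each line. The PDK1 share was 32.4%, 30.9% and 9.72%. In HLF the summed kinase TPM was 21.75 and 23.17 without lactate and 39.45 and 32.3 with it, 25.46 and 19.15 against 38.35 and 22.39 in SNU475, and 58.07 and 81.82 against 96.57 and 111.3 in PLC/PRF/5. The groups were apart in HLF and PLC/PRF/5 and overlapped in SNU475.

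In HLF the summed phosphatase TPM was 22.51 and 40.83 without lactate and 40.12 and 37.73 with it, 14.7 and 12.15 against 15.87 and 17.7 in SNU475, and 19.31 and 18.98 against 20.69 and 15.51 in PLC/PRF/5. These sums were apart in SNU475 and overlapped in the other lines. The PDP1 part of it was 73.6% to 81.7% for HLF, 67.9% to 89.5% for SNU475 and 43.2% to 55% for PLC/PRF/5. The kinase to phosphatase ratio averaged 0.767 ± 0.28 in the HLF controls and 0.920 ± 0.090 with lactate (SD, n = 2). It averaged 1.66 ± 0.11 and 1.84 ± 0.82 in SNU475, and 3.66 ± 0.92 and 5.92 ± 1.8 in PLC/PRF/5. By library the PLC/PRF/5 ratios were 3.01 and 4.31 in the controls and 4.67 and 7.17 with lactate, while in HLF (0.966 and 0.567 against 0.983 and 0.856) and in SNU475 (1.73 and 1.58 against 2.42 and 1.26) they were less far apart or overlapped. The ratio is of transcripts and was not tested. It says nothing about enzyme activity.

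**Figure D3:**
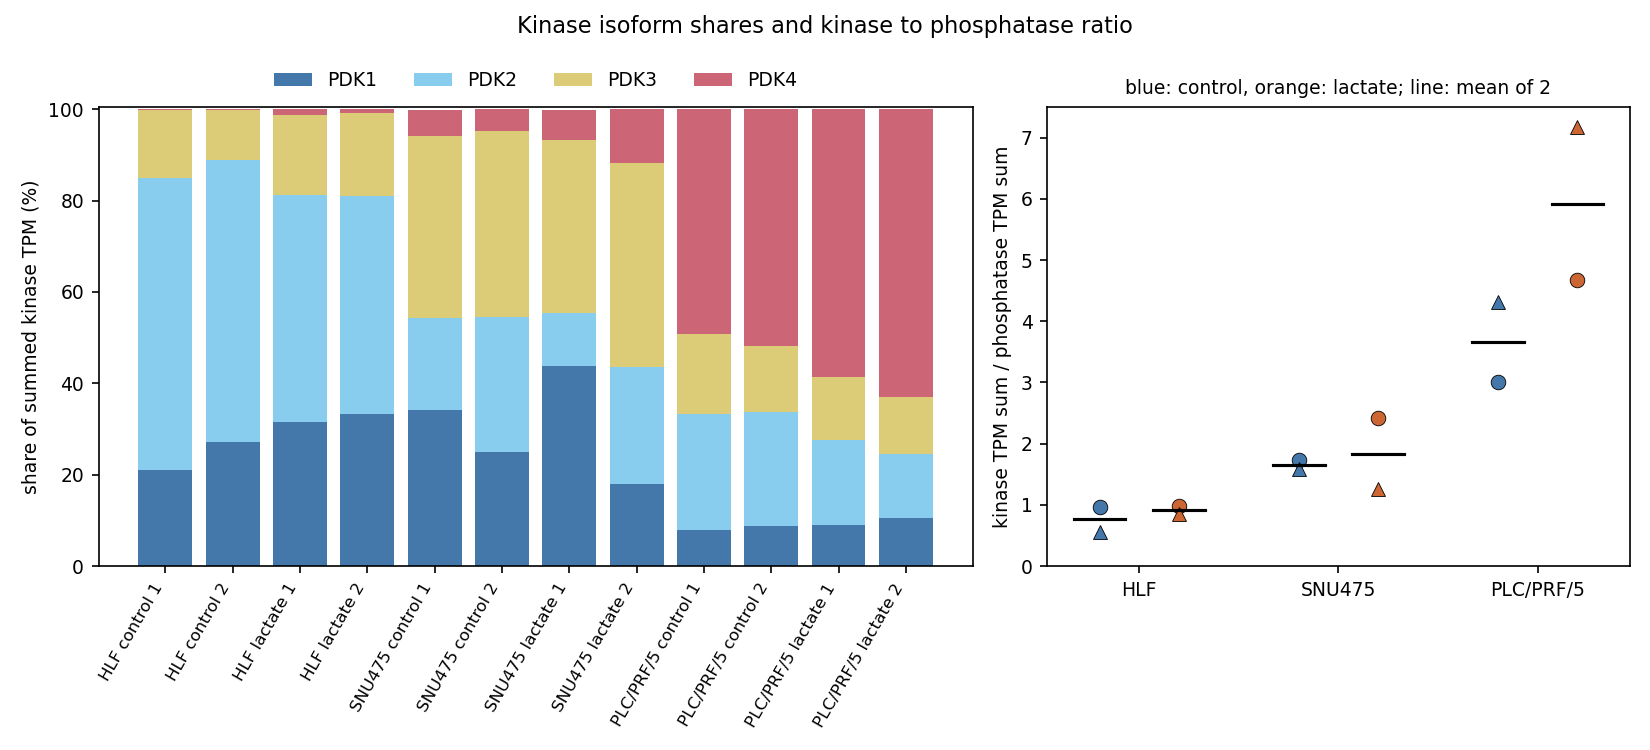
Stacked bars (left) give the share of each kinase in the summed kinase TPM, in percent, and points (right) the kinase to phosphatase TPM ratio, for each of the 12 libraries, with a line for the mean of 2. PDK2 takes the largest share in HLF, PDK3 in the SNU475 controls and PDK4 in PLC/PRF/5, and the ratio rises from 0.567 in an HLF control to 7.17 in a PLC/PRF/5 lactate library.

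RSEM, the program behind the tables, also reports for each gene a transcript length weighted by the abundance of its isoforms. For PDK3 this length was 2672.50 and 2988.61 bases in the HLF controls, 3195.70 and 3028.21 with lactate, 3219.36 and 3161.85 in the SNU475 controls and 3428.09 and 2295.55 with lactate. In PLC/PRF/5 it was 5263.49 and 5029.96 in the controls and 5192.17 and 5902.20 with lactate. All 4 PLC/PRF/5 libraries were above all 8 others, which was not tested. The lengths bear on the PDK3 level: untreated PLC/PRF/5 was above SNU475 by 0.51 ± 0.28 (log2, SE; adjusted p = 0.153, edgeR) on counts and at -0.18 once effective lengths were used as offsets. For PDK4 the length was 3601 bases in each SNU475 library and in 3 of 4 HLF libraries, and 3451.85 to 3601 in PLC/PRF/5.

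**Figure D4:**
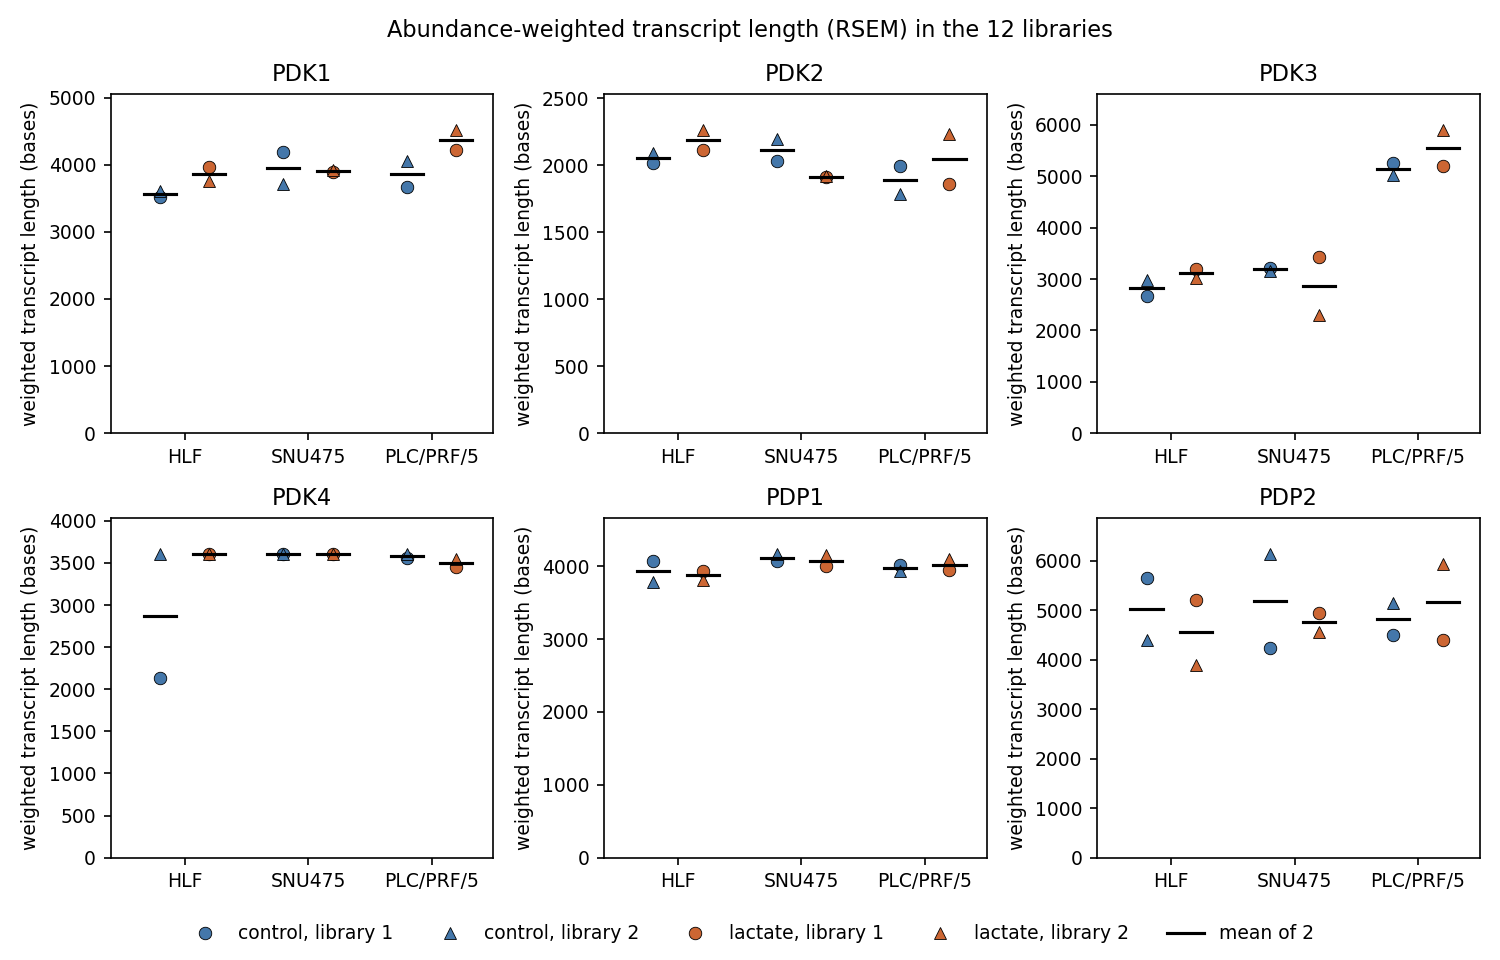
Abundance-weighted transcript length in bases for the 6 genes in each of the 12 libraries, with cell line on the horizontal axis and a bar for the mean of 2. PDK3 is at 5029.96 bases or more in PLC/PRF/5 and at 3428.09 bases or less in HLF and SNU475, while the single low PDK4 point is the HLF control with 1 count.

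No lactate effect was detected on transcripts of the complex these proteins act on or of the pyruvate carrier. Phosphorylation of the complex was not measured. Of 8 genes of the pyruvate dehydrogenase complex and the mitochondrial pyruvate carrier, 7 were tested (PDHA2 was not), and 0 were called for the mean lactate effect, 0 of 7 also at an unadjusted p under 0.05 (edgeR). Of all genes tested, 0.42% were called and 15.8% had such an unadjusted p. The median log2 effect was -0.03, beside 0.03 over all genes. PDHB, a subunit of E1, was at 0.10 ± 0.13 and MPC2, a carrier subunit, at -0.19 ± 0.12 (log2, SE; adjusted p = 0.479, edgeR). In untreated cells PLC/PRF/5 had 4 of 7 higher than HLF (DLAT, DLD, MPC1 and MPC2) and 0 lower, beside 21.7% and 21.3% of all genes.

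Of 6 related genes (PDPR, the regulatory subunit of the phosphatase, and the kinase, phosphatase and subunits of the branched-chain ketoacid dehydrogenase), 0 were called for the mean effect (0.42% of all genes were) and 1 of 6 had an unadjusted p under 0.05, near the 15.8% over all genes. The median was 0.26, and 5 of 6 were positive, beside 54.2% of all genes. PPM1K, the branched-chain phosphatase, was at 0.56 ± 0.17 (log2, SE; adjusted p = 0.141, edgeR), with 1.82 and 2.41 TPM in the PLC/PRF/5 controls against 4.17 and 5.33 TPM with lactate. Its groups overlapped in HLF (0.81 and 4.19 TPM against 2.82 and 2.82 TPM) and in SNU475 (3.42 and 1.73 TPM against 4.19 and 3.10 TPM). BCKDK, the branched-chain kinase closest to the PDK family, was at 0.29 ± 0.16 (adjusted p = 0.415, edgeR). Neither passed the test.

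Of 15 transcription factors known to act on PDK genes, 0 were called, 12 were positive and 6 had an unadjusted p under 0.05, all 6 higher, with a median of 0.27. Over all genes 0.42% were called, 54.2% were positive and 15.8% had such a p. PPARA, the fatty-acid sensing receptor, was at 0.73 ± 0.17 (log2, SE; adjusted p = 0.0802, edgeR). In HLF its level was 0.73 and 1.18 TPM without lactate against 4.63 and 1.74 TPM with lactate, 2.07 and 2.75 against 3.15 and 3.65 TPM in SNU475, and 6.79 and 8.76 against 6.87 and 10.03 TPM in PLC/PRF/5. HIF1A, the oxygen-regulated subunit of HIF, was at 0.66 ± 0.19 (adjusted p = 0.131, edgeR), with 1.55 ± 0.34 in SNU475 and -0.21 ± 0.33 in PLC/PRF/5. The HIF1A value was thus below 0 in PLC/PRF/5 and above 0 in the other lines. EPAS1 was at 0.42 ± 0.12 (adjusted p = 0.118, edgeR) and ARNT at 0.37 ± 0.14 (adjusted p = 0.222, edgeR) for the mean effect. PPARA, EPAS1 and ARNT were above 0 in each line.

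Of 22 PPAR and FOXO targets other than PDK4, 19 were tested and 0 were called for the mean effect, beside 0.42% of all genes. In the mean effect 19 of 19 were positive, beside 54.2% of all genes, with a median of 0.30. This list was written with earlier results of these data known, so the count describes the list only. In HLF alone 11 of 19 were positive, beside 48% of all genes, with a median of 0.06. In SNU475 it was 15 of 19, beside 51%, with a median of 0.20. In PLC/PRF/5 it was 18 of 19, beside 52.8%, with a median of 0.405. At an unadjusted p under 0.05 for the mean effect there were 4 of 19, beside 15.8% of all genes. CREB3L3, a liver transcription factor of fasting, was at 1.35 ± 0.33 (log2, SE; adjusted p = 0.0917, edgeR), with 2.05 and 2.84 TPM in the PLC/PRF/5 controls and 4.39 and 10.15 TPM with lactate. ANGPTL4, an inhibitor of lipoprotein lipase, was at 1.28 ± 0.55 (adjusted p = 0.280, edgeR) and IRS2, an insulin receptor substrate, at 0.49 ± 0.16 (adjusted p = 0.161, edgeR). Neither had the same sign in all lines. ANGPTL4 was at -0.17 ± 0.91 in HLF and above 0 in the other lines. IRS2 was at -0.51 ± 0.27 in PLC/PRF/5 and above 0 in the other lines. CREB3L3 and ACADVL were above 0 in each line, with ACADVL at 0.36 ± 0.10 for the mean effect (adjusted p = 0.123, edgeR).

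Of 20 HIF targets other than PDK1 and PDK3, 0 were called, 18 were positive and 11 had an unadjusted p under 0.05, with a median of 0.56. By line 18 (HLF), 17 (SNU475) and 16 (PLC/PRF/5) of 20 were positive, beside 48%, 51% and 52.8% of all genes. The medians by line were 0.63, 0.47 and 0.39. MXI1, a MYC antagonist, was at 0.90 ± 0.18 (log2, SE; adjusted p = 0.0505, edgeR) and BNIP3L, a mitophagy receptor, at 0.61 ± 0.12 (adjusted p = 0.0562, edgeR). P4HA1, a collagen prolyl hydroxylase subunit, was at 0.69 ± 0.18 and DDIT4, an inhibitor of mTORC1, at 1.53 ± 0.39. Over all genes 0.42% were called for the mean effect, 54.2% were positive and 15.8% had an unadjusted p under 0.05. These medians and counts describe the lists and were not tested. All the related lists were written with earlier results of these data known.

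**Figure D5:**
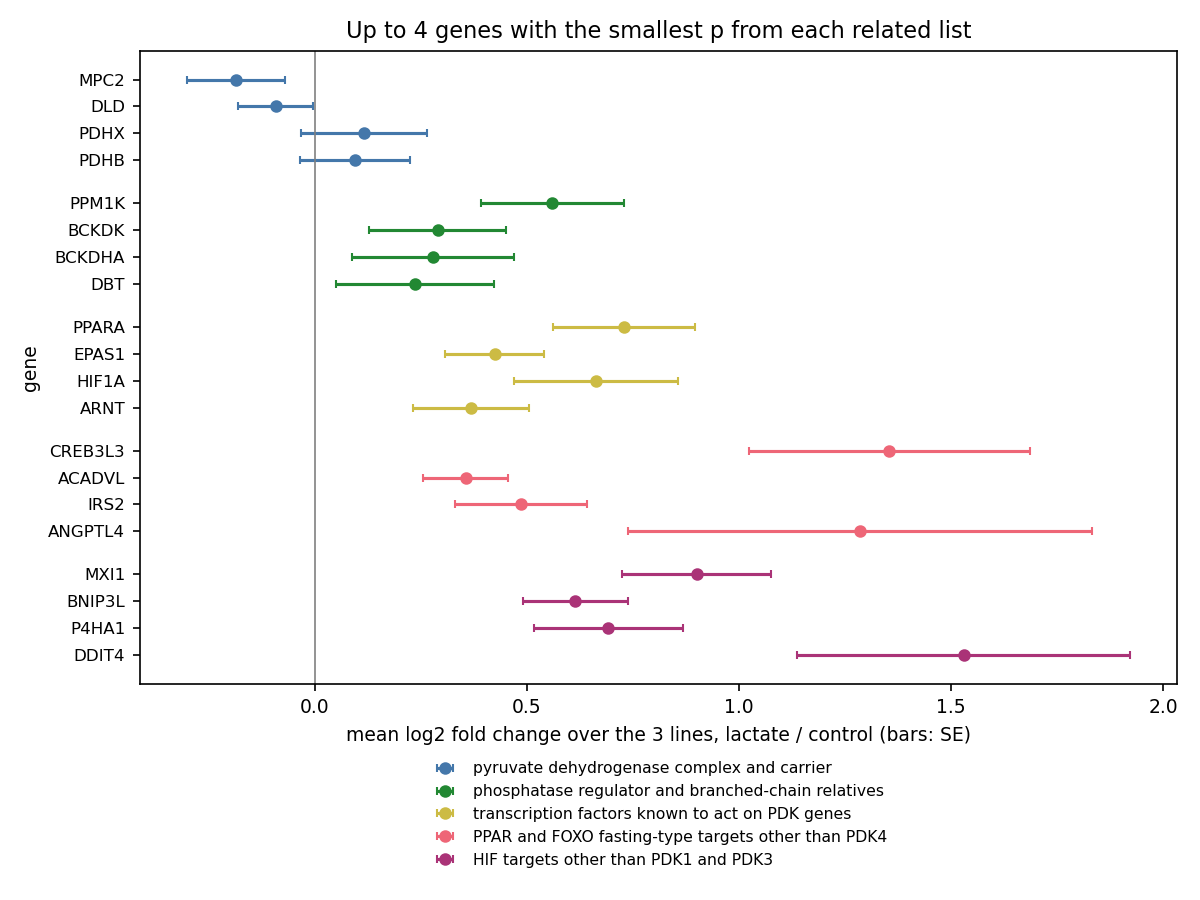
Mean log2 lactate effect over the 3 lines on the horizontal axis, with bars for the standard error, for the 4 genes with the smallest p from each of the 5 related gene lists. The points run from -0.19 for MPC2 to 1.53 for DDIT4, and as these genes were picked by p they do not stand for their lists.

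The members were also compared with other genes by the Pearson correlation of log2 CPM over the 12 libraries after centring on each line, among 11104 genes averaging 5 CPM or more. These values describe 12 libraries that share treatment, depth and library number, and carry no p. Among the genes closest to PDK4 were CLIP2 (0.956) and GAB2 (0.934), and closest to PDK1 were EVL (0.968), LRP1 (0.963) and KDM4B (0.961). PDK3 was closest to FZD7 (0.95), SEMA3D (0.935) and FGFRL1 (0.928), and PDK2 to TMEM200B (0.928), GLI1 (0.923) and INTS13 (0.922). PDP1 was closest to PAWR (0.978), SRPK2 (0.976) and STK17B (0.967), and PDP2 to SGPP2 (0.979), SMIM3 (0.936) and RBM47 (0.928). Among the members themselves, PDK1 with PDK3 gave 0.819, PDK3 with PDK4 0.770, PDK1 with PDK4 0.629, PDK2 with PDP2 -0.75 and PDP1 with PDP2 -0.604.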

How the data were processed

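The deposited tables hold RSEM output, 1 per library. The expected counts are RSEM's estimated counts, and TPM and FPKM are deposited beside them, per the file headers. FPKM was not used. Per the submitters' processing notes, the tools were FastQC, STAR, RSEM and DESeq2, with the mouse builds GRCm38 and mm10. Yet each of the 62757 identifiers is human and 0 are from mouse, so the tables were read as human. The human build is not given in the sources used here. Length and effective length, as deposited, served as descriptions and offsets.

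Y copies of pseudoautosomal genes (47 rows) were folded into the X copies. Expected counts were rounded, filtered with filterByExpr (18355 genes) and scaled by TMM (factors 0.794 to 1.165). The edgeR 4.0.16 quasi-likelihood test (R 4.3.3, robust) used 6 groups, with 6 residual degrees of freedom and a common biological coefficient of variation of 0.26. Adjusted p is Benjamini-Hochberg over 18355 genes, called at 0.05. Log2 fold changes are edgeR's. TPM, not tested, compares levels between genes. The scripts were tested on simulated data.

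Library numbers come from the titles. Deviations of same-numbered libraries correlated at 0.125 (HLF), 0.556 (SNU475) and 0.25 (PLC/PRF/5), all above 0.1, so they were treated as paired where the block is used. The members and lists were chosen with earlier results of these data known. Named list genes were those, up to 4 a list, with the smallest p for the mean effect. For likeness the 3 closest genes to each member were named, of which 1 is not reported here. Loci came from GENCODE 29, which holds 92.9% of the identifiers. Alternatives used DESeq2 1.42.0 and limma 3.58.1.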

Additional observations from a re-analysis of the deposited data

How the results depend on the processing

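Numbers of members called, of 6, moved as follows. For HLF it was 1 with DESeq2, with no low-count filter and without both SNU475 libraries numbered 2, in each case PDK4 (adjusted p = 0.0238, 7.95e-06 and 0.0445). For SNU475 it was 1 with no filter, and for the interaction 1 with no filter (PDK4, adjusted p = 0.0493). For the mean effect it was 2 with DESeq2 (PDK4 and PDK3), 0 with limma-voom (PDK4 log2 1.75), and 3 with no filter, with the replicate block and without both SNU475 libraries numbered 2. Leaving out 1 library gave 0 to 1 called for SNU475, 0 to 3 for the mean effect, 3 to 5 for SNU475 against HLF (3 without HLF control 1, HLF control 2 or SNU475 control 1) and 1 to 4 for PLC/PRF/5 against SNU475 (1 without PLC/PRF/5 control 2). The mean effect gave 0 called without HLF control 1 or 2, HLF lactate 1, SNU475 control 2 or any of the 4 PLC/PRF/5 libraries, and 3 without SNU475 lactate 2. The replicate block changed no other call. PDP1 for SNU475 against HLF was lost with DESeq2 size factors in edgeR (adjusted p = 0.0574) and without mitochondrial genes (0.0508), and PDP2 with effective lengths (0.0892, and 0.0506 for PLC/PRF/5 against SNU475). PDP1 for PLC/PRF/5 against SNU475 was called in untreated libraries alone (-0.66, adjusted p = 0.0375). Over all genes, the mean effect called 77, against 947 with DESeq2, 16 with limma-voom, 922 with no filter, 116 with a mean of at least 1 CPM, 1268 with the replicate block, 17 with effective lengths, 530 without both SNU475 libraries numbered 2 and 0 to 1493 leaving out 1 library. Single lines, at 0, had 42 (HLF), 274 (SNU475) and 91 (PLC/PRF/5) with DESeq2, 111, 414 and 188 with no filter, and 3, 46 and 121 with the replicate block. Lines fitted alone had 1, 0 and 569, and without both SNU475 libraries numbered 2 the numbers were 39, 0 and 138. Leaving out 1 library gave up to 1788 for SNU475 (without SNU475 lactate 1), up to 19 for PLC/PRF/5 and 0 for HLF. Small values changed sign. PDK2's mean effect was 0.000149 with DESeq2 factors, 0.00432 with upper-quartile factors and 0.00283 with a mean of at least 1 CPM. PDK1 for PLC/PRF/5 against HLF was 0.0143 with DESeq2 factors, 0.0134 with DESeq2, 0.0238 with no filter, 0.0218 in untreated libraries alone, 0.0168 without mitochondrial genes and 0.0194 without both SNU475 libraries numbered 2. With effective lengths as offsets, PDP2 in HLF was 0.0272, PDK2 in PLC/PRF/5 was -0.114, PDK2 for PLC/PRF/5 against HLF was 0.0631 and PDK3 for PLC/PRF/5 against SNU475 was -0.184. PDP1's mean effect was -0.00927 without both SNU475 libraries numbered 2. Leaving out 1 library gave ranges across 0 for PDP2 in HLF (-0.334 to 0.198). In SNU475 they were -0.530 to 1.07 for PDK1, -0.703 to 0.114 for PDK2, -0.139 to 0.582 for PDK3, -0.156 to 0.794 for PDP1 and -0.282 to 0.71 for PDP2. In PLC/PRF/5 they were -0.0872 to 0.143 for PDK2 and -0.0596 to 0.260 for PDP2. For the mean effect they were -0.158 to 0.110 for PDK2, -0.0925 to 0.220 for PDP1 and -0.0972 to 0.231 for PDP2. For PLC/PRF/5 against HLF they were -0.452 to 0.285 for PDK1, -0.287 to 0.0549 for PDK2 and -0.135 to 0.388 for PDP2. The cause of these moves was not tested. The depth limits PDK4 in HLF, where the controls hold 3 counts in all.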
